A study of Caenorhabditis elegans with 12 samples.

Results

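Intervals of the genome that carried the chromatin protein ZFP-1 together with a single partner, JMJD-2, SCC-1 or SIN-3, were examined in wild-type L3 larvae of *C. elegans*. The members were chosen by pooling the 7558 peaks of the 6 deposited peak lists, merging peaks that shared at least 1 bp into intervals, and taking intervals with a ZFP-1 peak, exactly 1 of the 3 partner proteins and no BLMP-1 peak. This gave 224 members of 5870 intervals in all: 63 with JMJD-2, 40 with SCC-1 and 121 with SIN-3. Each class was compared with the intervals of the same partner that held neither ZFP-1 nor BLMP-1 nor another of the partners, 326 for JMJD-2, 484 for SCC-1 and 970 for SIN-3. TOP-2 could be present in either set.

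All samples came from whole N2 (wild-type) animals at the L3 stage, the third larval stage, raised in liquid culture at a single temperature from synchronized starved L1 larvae, with no treatment. ZFP-1, the partners JMJD-2, SCC-1 and SIN-3, and also BLMP-1 and TOP-2, 6 proteins in all, were each mapped by ChIP-seq, in which crosslinked DNA is recovered with an antibody to the protein and sequenced, in 2 replicates per protein, 12 samples in all. The deposited lists combine both replicates of a protein and give only the position of each peak in ce10, without height or read number, so depth is unknown and no replicate error can be given. Because the animals were whole, 2 proteins in 1 interval may have been bound in different cells or at different times, and co-binding on the same molecule was not measured. The tests below took intervals as units and cover counting error over intervals only, and neighboring intervals may not be independent. Members and properties were chosen with earlier results of these data known, a choice that the adjusted p-values do not cover.

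ZFP-1 is a PHD zinc finger protein related to mammalian AF10, a partner of the histone H3 methyltransferase DOT1L, and is known in worms from the promoters of active genes and from work on RNA interference. Its partners here have distinct roles. JMJD-2 is a histone demethylase that removes methyl groups from lysines of histone H3, SCC-1 is the kleisin subunit that closes the cohesin ring around DNA, and SIN-3 is the scaffold of a histone deacetylase complex. The X Chromosome of the worm is subject to dosage compensation, in which a condensin complex lowers its expression in hermaphrodites.

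Most intervals with ZFP-1 held no partner. Of 2455 intervals with a ZFP-1 peak, 1811 held ZFP-1 alone, 234 held BLMP-1 or TOP-2 and none of the 3 partners, 77 held 2 partners and 70 held all 3. A further 39 had 1 partner but also BLMP-1 and were left out by the rule. Without BLMP-1, ZFP-1 was present at 16.2% of the intervals with JMJD-2 as only partner (exact Clopper-Pearson 95% interval 12.7% to 20.2%), at 11.1% of those with SIN-3 (9.29% to 13.1%) and at 7.63% of those with SCC-1 (5.51% to 10.2%). These shares follow from the presence of the peaks that chose the members and were not tested.

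Few intervals lay near the limit of 1 shared bp. The shortest stretch shared by a ZFP-1 and a partner peak was 26 bp for SIN-3, 38 bp for SCC-1 and 40 bp for JMJD-2. Just outside, the closest intervals without ZFP-1 lay 7 bp (JMJD-2, X from 16930835 to 16931079), 38 bp (SCC-1, II from 5511792 to 5512021) and 47 bp (SIN-3, III from 4561878 to 4562102) from a ZFP-1 peak. A ZFP-1 peak within 100 bp was found at 4 of the 326 JMJD-2 intervals without ZFP-1, at 2 of the 484 for SCC-1 and at 6 of the 970 for SIN-3.

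The distribution over the chromosomes set the SIN-3 class apart from SIN-3 intervals without ZFP-1. Of the 121 intervals with ZFP-1 and SIN-3, 30 were on X (24.8%, exact interval 17.4% to 33.5%), compared with 51 of 970 with SIN-3 and no ZFP-1 (5.26%, 3.94% to 6.86%). The odds ratio was 5.94 (exact interval 3.46 to 10.0, adjusted p = 3.65e-09, two-sided Fisher's exact test, Benjamini-Hochberg over all 36 tests). Per length, SIN-3 intervals without ZFP-1 were 3.86 times as dense on the autosomes as on X, 11.1 against 2.88 per Mb. SIN-3 intervals with ZFP-1 were instead 1.54 times as dense on X as on the autosomes, 1.70 against 1.10 per Mb.

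JMJD-2 members were also frequent on X, but the difference from JMJD-2 intervals without ZFP-1 did not pass the adjusted test. On X there were 22 of the 63 members (34.9%, exact interval 23.3% to 48.0%) and 70 of the 326 intervals without ZFP-1 (21.5%, 17.1% to 26.3%; odds ratio 1.96, p = 0.0341 and adjusted p = 0.149, Fisher's exact test). With at least 50% of the shorter peak shared, these shares were 36.4% and 21.5% (adjusted p = 0.147, Fisher's exact test). Counting intervals less than 20 kb apart once gave 34.4% and 19.8% (adjusted p = 0.125, Fisher's exact test). Keeping intervals with BLMP-1 gave 34.2% and 21.3% (adjusted p = 0.112, Fisher's exact test). Without the 1-Mb window that held the most members, the shares were 28.1% and 20.7% (p = 0.226, adjusted p = 0.449, Fisher's exact test). That window lay on X and was picked for its members, so leaving it out lowers their X share by construction. SCC-1 members were rare on X, as were SCC-1 intervals without ZFP-1. Only 3 of 40 SCC-1 members (7.50%, 1.57% to 20.4%) and 40 of 484 intervals without ZFP-1 (8.26%) were there (odds ratio 0.900, exact interval 0.170 to 3.05, adjusted p = 1.0, Fisher's exact test). The interval of this odds ratio still allows a difference in either direction. The 3 SCC-1 members on X, named here after their number was seen, ran from 4853074 to 4853331, from 11031293 to 11031629 and from 14127281 to 14127550 (ce10).

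**Figure D1:**
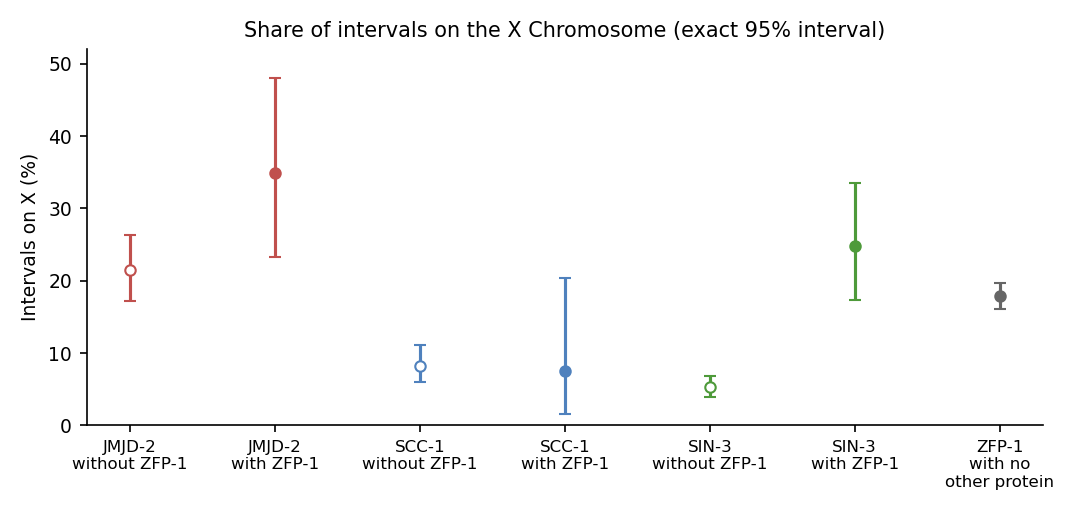
Share of intervals on the X Chromosome in percent for each partner without ZFP-1 (open circles) and with ZFP-1 (filled circles) and for intervals of ZFP-1 with no other protein (gray). Bars are exact 95% intervals over intervals. SIN-3 intervals with ZFP-1 stood at 24.8% and those without at 5.26%, whereas both SCC-1 sets were below 10%.

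The odds ratio of lying on X with against without ZFP-1 differed between the 3 partners (n = 2004 intervals, adjusted p = 0.00286, likelihood-ratio test of the partner by ZFP-1 interaction in a logistic model, Benjamini-Hochberg over 3 properties). Between the classes, the X share was higher for JMJD-2 with ZFP-1 than for SCC-1 with ZFP-1 (34.9% against 7.50%, adjusted p = 0.0263 and odds ratio 6.62 in Fisher's exact test). This call was lost under 4 alternatives, among them leaving out the 1-Mb window with the most members (28.1% against 5.13%, adjusted p = 0.0785, Fisher's exact test). As that window lay on X, its removal lowers the X share of the members by construction. The SIN-3 class lay between them and differed from neither after adjustment (adjusted p = 0.363 against JMJD-2 and 0.149 against SCC-1, Fisher's exact test). For intervals with ZFP-1 and no other protein, 324 of 1811 were on X (17.9%, 16.2% to 19.7%), a value inside the exact interval of the SIN-3 class and below that of the JMJD-2 class, and this comparison was not tested.

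Read from the side of the partner, SIN-3 intervals met ZFP-1 at different rates on the different chromosomes. On X, 30 of 81 SIN-3 intervals held ZFP-1 (37.0%, exact interval 26.6% to 48.5%), compared with 91 of 1010 on the autosomes (9.01%, 7.32% to 10.9%). Among the autosomes the share was 13.8% on I, 10.6% on III, 7.02% on II, 6.19% on IV and 5.16% on V, so that X lay above each of them. JMJD-2 intervals had a more even share, 12.1% to 14.6% on the autosomes and 23.9% on X. For SCC-1 the highest share was on II (14.7%, 11 of 75) and the lowest on I (4.50%, 5 of 111), with exact intervals that overlapped (7.56% to 24.7% and 1.48% to 10.2%), and X stood at 6.98%. These shares restate the counts by chromosome, and only the contrast of X with the autosomes was tested, in the comparison above.

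**Figure D2:**
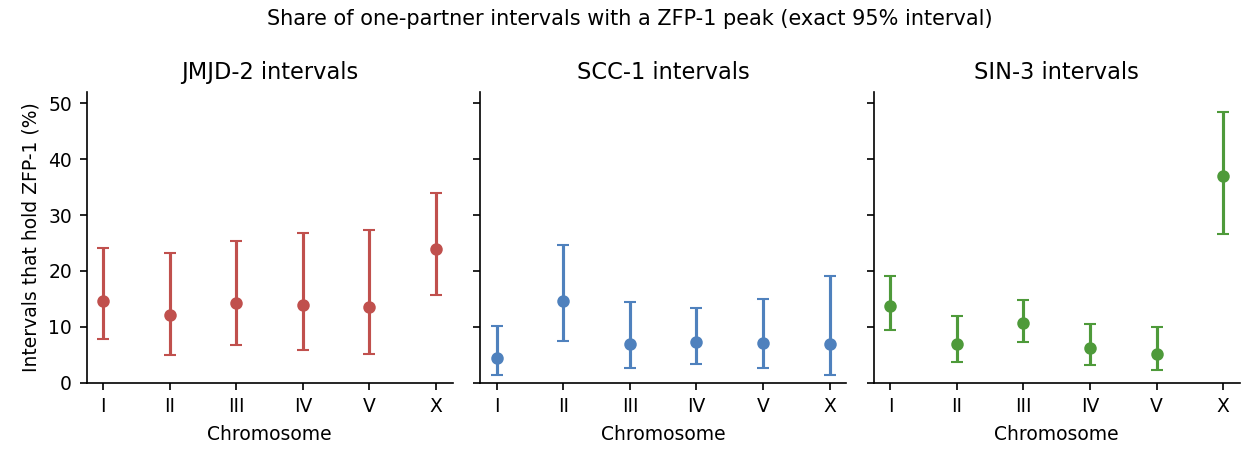
Percentage of intervals with JMJD-2, SCC-1 or SIN-3 as only partner that also held a ZFP-1 peak, for each chromosome. Bars are exact 95% intervals. The SIN-3 value on X (37.0%) had an interval above those of all 5 autosomes, while the JMJD-2 and SCC-1 intervals of X and the autosomes overlapped.

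Along the X Chromosome, SIN-3 members were spread evenly, with 11, 9 and 10 in the left, middle and right of 3 segments of equal length, the end of the chromosome being taken from the last peak in any list. SIN-3 intervals on X without ZFP-1 numbered 22, 9 and 20 in the same segments. Of the 22 JMJD-2 members on X, 12 were in the right segment, 7 in the middle and 3 in the left, whereas the 70 JMJD-2 intervals without ZFP-1 were distributed as 26, 19 and 25. The SCC-1 members on X had 1 in each segment. The positions along X were not tested.

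The 1-Mb window with the most members of the 3 classes together also lay on X, from 13900001 to 14900000 (ce10). It held 12 members, against a genome mean of 2.24 per Mb, of which 6 had JMJD-2, 5 SIN-3 and 1 SCC-1. As the highest of all windows it exceeds the mean by construction. The 6 JMJD-2 members of the window began at 13969572, 13995785, 14101983, 14238302, 14818667 and 14824602, and the 5 SIN-3 members at 13918182, 14480281, 14588932, 14610418 and 14844637. The SCC-1 member there began at 14127281. The SIN-3 interval at 14480281 was among the 3 of its class with the longest shared stretch (262 bp).

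Members on the autosomes with JMJD-2 or SIN-3 were found less often on the chromosome arms than intervals of the same partner without ZFP-1, but no difference passed the adjusted test. The arms of worm autosomes are known to be richer in repeats and in methylation of lysine 9 of histone H3 than the centers. They were taken here as the outer 33.3% of the length at either end of an autosome. Both arms together thus cover most of an autosome, and 63.5% of all autosomal intervals (3152 of 4960) lay on them. Of 41 autosomal JMJD-2 members, 20 were on arms (48.8%), compared with 170 of 256 without ZFP-1 (66.4%; p = 0.0355, adjusted p = 0.149, Fisher's exact test). For SIN-3 the numbers were 51 of 91 (56.0%) and 620 of 919 (67.5%; p = 0.0357, adjusted p = 0.149, Fisher's exact test). With intervals less than 20 kb apart counted once, the SIN-3 shares were 56.6% and 64.2% (adjusted p = 0.444, Fisher's exact test). Counted in that way, the JMJD-2 shares were 47.5% and 68.7% (adjusted p = 0.107, Fisher's exact test). SCC-1 members had 26 of 37 on arms (70.3%), near the 66.7% of SCC-1 intervals without ZFP-1 (odds ratio 1.18, exact interval 0.546 to 2.73, adjusted p = 0.809, Fisher's exact test). The classes did not pass a test against each other either, with adjusted p from 0.202 to 0.715 in Fisher's exact test. ZFP-1 intervals with no other protein had 61.0% of their autosomal number on arms.

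Members with SIN-3 more often had another ZFP-1 site nearby than SIN-3 intervals without ZFP-1. The neighbors were counted in the ZFP-1 list that also chose the members, so this comparison is not independent of the rule. Another interval with ZFP-1 lay at most 10 kb away, between midpoints, for 64 of 121 SIN-3 members (52.9%, exact interval 43.6% to 62.0%), against 370 of 970 SIN-3 intervals without ZFP-1 (38.1%, 35.1% to 41.3%; adjusted p = 0.0263 and odds ratio 1.82 in Fisher's exact test). The call was lost when the ZFP-1 and SIN-3 midpoints had to be at most 100 bp apart and when the densest window was left out (adjusted p = 0.0672 and 0.0618, Fisher's exact test). It was kept with neighbors at most 5 kb apart (42.1% against 22.9%, adjusted p = 0.000203, Fisher's exact test). With neighbors at most 20 kb apart it was kept as well (71.9% against 57.8%, adjusted p = 0.0375, Fisher's exact test). For JMJD-2 the shares were 54.0% and 46.3%, and for SCC-1 47.5% and 35.7%, neither of which passed (adjusted p = 0.448 and 0.363, Fisher's exact test). The odds ratio with against without ZFP-1 was not shown to vary among the partners (n = 2004 intervals, adjusted p = 0.686, likelihood-ratio test of the interaction). Of the ZFP-1 intervals with no other protein, 54.3% had a ZFP-1 neighbor, so the share of the SIN-3 members was not particular to them.

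The density of the partner around the members gave no call. A second interval with the same partner was present within 10 kb at 20 of 63 JMJD-2 members (31.7%; 28.2% without ZFP-1), 12 of 40 SCC-1 members (30.0%; 41.1%) and 45 of 121 SIN-3 members (37.2%; 43.7%), with adjusted p from 0.367 to 0.753 (Fisher's exact test). The median distance to the next SIN-3 interval was 17.1 kb from SIN-3 members and 12.5 kb from SIN-3 intervals without ZFP-1. For SCC-1 the medians were 33.0 kb and 16.4 kb, and for JMJD-2 26.2 kb and 28.7 kb. At closer range, SCC-1 intervals without ZFP-1 had another SCC-1 interval within 1 kb in 77 of 484 cases (15.9%), while 2 of the 40 SCC-1 members did (exact interval 0.611% to 16.9%). For SIN-3 the shares within 1 kb were 9.09% for members and 12.2% without ZFP-1, and for JMJD-2 9.52% and 8.28%. That distance was not tested.

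**Figure D3:**
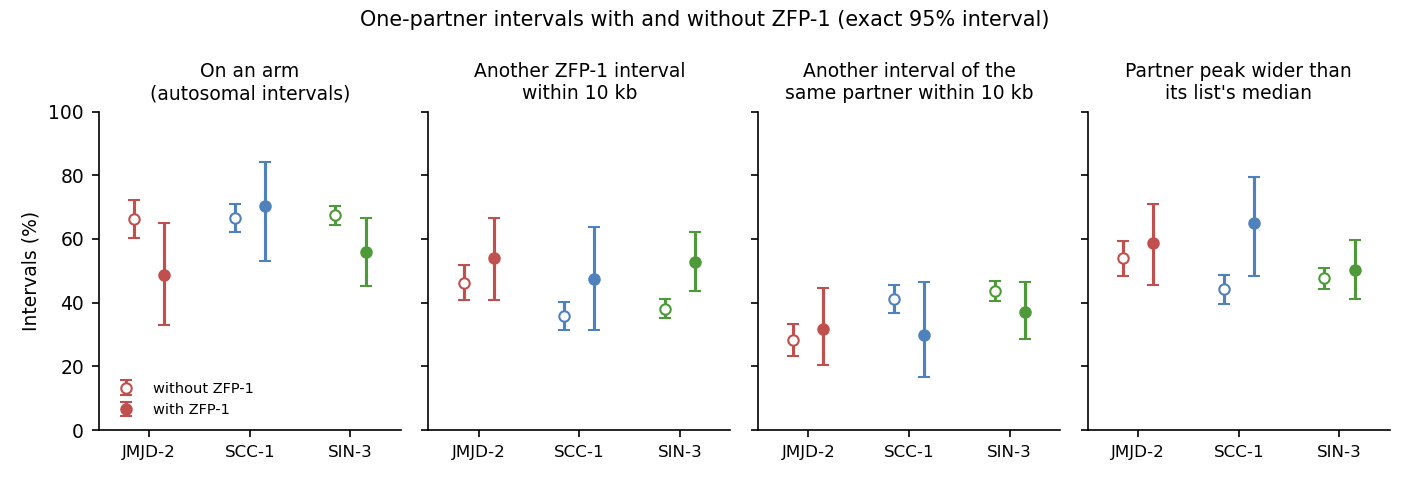
Percentage of intervals on an autosome arm, with another ZFP-1 interval within 10 kb, with another interval of the same partner within 10 kb, and with a partner peak wider than the median of its list, for each partner without (open) and with (filled) ZFP-1. Bars are exact 95% intervals, and of these 12 comparisons only SIN-3 with a ZFP-1 neighbor (52.9% against 38.1%) passed the adjusted test.

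Some members had a peak of an absent partner close by. A peak of SCC-1 lay within 1 kb of 1 of 63 JMJD-2 members and a peak of SIN-3 within 1 kb of 4. JMJD-2 was within 1 kb of 0 of 40 SCC-1 members (taking 3 counts as the limit that a count of 0 allows, a share of up to 7.50%), whereas SIN-3 was within 1 kb of 4 of them. Around SIN-3 members, 3 of 121 had JMJD-2 and 7 had SCC-1 within 1 kb, again measured between the midpoints of intervals. Without ZFP-1 the shares were lower for some pairs and higher for others, and none of these differences was tested. SIN-3 was within 1 kb of 6.35% of JMJD-2 members and 3.99% of JMJD-2 intervals without ZFP-1, and SCC-1 within 1 kb of 1.59% and 3.37%. For SCC-1, SIN-3 was that close to 10.0% of members and 16.5% of intervals without ZFP-1, 3.93% of which had JMJD-2. For SIN-3, the shares with JMJD-2 were 2.48% and 2.37% and those with SCC-1 5.79% and 7.32%.

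Within a member, the ZFP-1 and partner peaks were largely coincident. The shared stretch had a median of 222 bp for JMJD-2, 204 bp for SCC-1 and 204 bp for SIN-3, which was 92.7%, 87.3% and 91.6% of the narrower peak in the median member. At least 50% of the narrower peak was shared in 55 members with JMJD-2, 33 with SCC-1 and 113 with SIN-3. In most members the peaks were staggered, and 1 peak lay wholly inside the other in 14 JMJD-2, 7 SCC-1 and 27 SIN-3 members. All but 5 members consisted of exactly 2 peaks, which overlap directly by the rule. In the other 5 the ZFP-1 and partner peak also overlapped directly rather than through another peak. As members were chosen by overlap, the rule limits both the shared stretch and the distance between midpoints.

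The midpoints of the peaks lay within 50 bp of each other in 44 of 63 JMJD-2 members (69.8%, exact interval 57.0% to 80.8%), 78 of 121 SIN-3 members (64.5%, 55.2% to 73.0%) and 19 of 40 SCC-1 members (47.5%, 31.5% to 63.9%). The median distances were 29.5, 32.5 and 57.0 bp. The SCC-1 class had the largest median distance, but its difference from JMJD-2 did not pass the adjusted test (odds ratio 2.56 for JMJD-2 against SCC-1, p = 0.0374, adjusted p = 0.149, Fisher's exact test), nor did that from SIN-3 (adjusted p = 0.202, Fisher's exact test). The gap was smaller at other distances. Midpoints lay within 25 bp in 29 JMJD-2 (46.0%), 16 SCC-1 and 50 SIN-3 members (41.3%), and within 100 bp in 52 JMJD-2 (82.5%), 30 SCC-1 and 106 SIN-3 members (87.6%). With peaks of 193 to 424 bp (ZFP-1) and 187 to 319 bp (JMJD-2) in the JMJD-2 class, distances of this size are a fraction of the peak width.

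**Figure D4:**
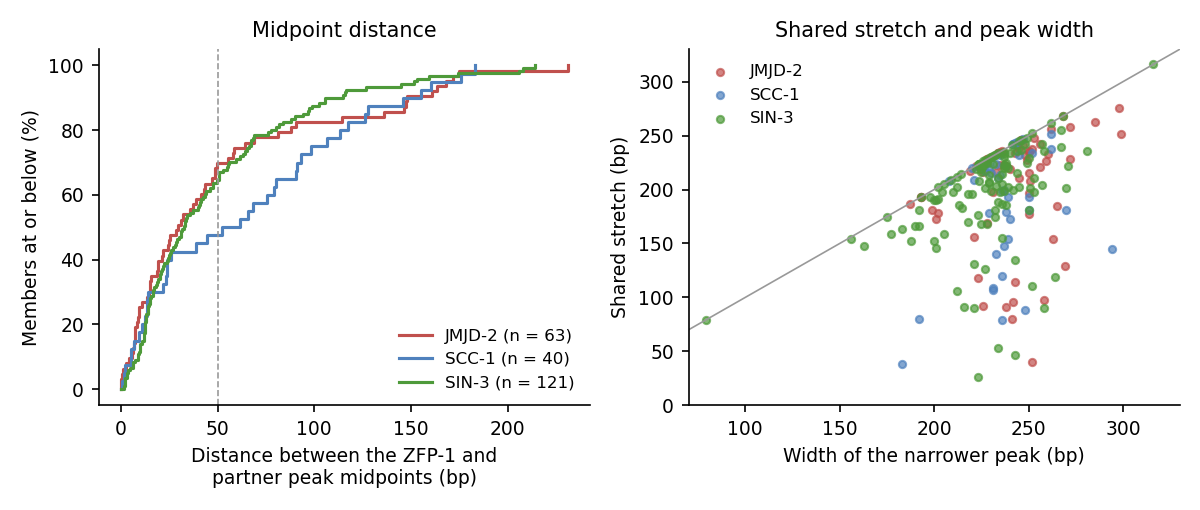
Left, cumulative percentage of members against the distance in bp between the ZFP-1 and partner peak midpoints, with a dashed line at 50 bp. Right, shared stretch in bp against the width of the narrower peak, each point a member and the gray line marking a narrower peak that is shared completely. The SCC-1 curve crossed 50 bp at 47.5%, below the JMJD-2 (69.8%) and SIN-3 (64.5%) curves, and most points lay near the line.

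The members with the longest shared stretch illustrate the arrangement. In the SIN-3 class, a ZFP-1 peak from 13411401 to 13411716 on I (ce10) lay wholly inside a SIN-3 peak from 13411382 to 13411759, sharing 316 bp. The next SIN-3 members ran from 8800246 to 8800522 on III (268 bp shared) and from 14480281 to 14480575 on X (262 bp). For JMJD-2, the longest shared stretches were 276 bp on X (1323011 to 1323348), 268 bp on I (10035015 to 10035314) and 263 bp on IV (16492261 to 16492574). For SCC-1 they were 251 bp on II (3209307 to 3209582), 247 bp on IV (11119136 to 11119385) and 244 bp on IV (14033177 to 14033434). In the SCC-1 interval on IV at 11119136, both peaks began at the same base and their midpoints were 1.5 bp apart.

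At the other end, members that shared the shortest stretch joined peaks that lay side by side. On X, a SIN-3 peak from 4016019 to 4016241 and a ZFP-1 peak from 4016216 to 4016456 shared 26 bp, with midpoints 206 bp apart. On I, a JMJD-2 peak from 4701382 to 4701633 shared 40 bp with a ZFP-1 peak that began at 4701132, and an SCC-1 peak from 1296427 to 1296609 shared 38 bp with a ZFP-1 peak that began at 1296572. Their midpoints were 231 and 183 bp apart. The members nearest to each other were a pair with SIN-3 on III, from 8799742 to 8800011 and from 8800246 to 8800522, with midpoints 507.5 bp apart. The peaks of both were nearly superimposed, with offsets of 13 and 4.5 bp between ZFP-1 and SIN-3.

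Peak widths of the members were close to those of the rest of each list. Median ZFP-1 widths were 259 bp with JMJD-2, 249 bp with SCC-1 and 248 bp with SIN-3, against 251 bp for ZFP-1 alone, and no class passed a test of the share wider than the list median, either against ZFP-1 alone (adjusted p from 0.363 to 0.753, Fisher's exact test) or against another class (0.163 to 0.933). SCC-1 peaks were wider than the SCC-1 median in 26 of 40 members (65.0%) and in 214 of 484 intervals without ZFP-1 (44.2%), which did not pass after adjustment (odds ratio 2.34, p = 0.0131, adjusted p = 0.117, Fisher's exact test). With at least 50% of the shorter peak shared, the SCC-1 shares were 69.7% and 44.2% (adjusted p = 0.0548, Fisher's exact test). With peaks at most 100 bp apart merged, they were 63.4% and 45.2% (adjusted p = 0.169, Fisher's exact test). Against the upper quartile of widths in place of the median, the SCC-1 shares were 30.0% and 20.9%. The shares with and without ZFP-1 were 58.7% and 54.0% for JMJD-2 and 50.4% and 47.6% for SIN-3 (adjusted p = 0.731 for both, Fisher's exact test). A wider peak is more likely to touch another, so width is not wholly independent of how the members were chosen.

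TOP-2, a type II topoisomerase that relieves DNA supercoils and was not part of the rule, was rare at the members. It was found at 4 of the 224 members (1.79%), 3 with SIN-3 and 1 with JMJD-2, whereas 464 of all 5870 intervals held TOP-2 (7.90%), a share that counts the intervals of TOP-2 alone as well. The 3 SIN-3 intervals with ZFP-1 and TOP-2 were all on X, from 760519 to 760825, from 9999530 to 9999815 and from 10026193 to 10026589 (ce10), the last pair 26.7 kb apart. The JMJD-2 interval ran from 2171925 to 2172303 on III. Compared with SIN-3 intervals without ZFP-1, of which 7 of 970 held TOP-2 (0.722%), the share of 2.48% did not pass the test (adjusted p = 0.247, Fisher's exact test). No TOP-2 peak was found at the 40 SCC-1 members, which by the same limit of 3 counts allows a share of up to 7.50%, and JMJD-2 members did not differ detectably from JMJD-2 intervals without ZFP-1 (1.59% and 1.23%, adjusted p = 0.731, Fisher's exact test).

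Members were sparse enough that few lay next to one another. Of the 224, 38 had another member of any class within 10 kb (17.0%), and the median distance to the closest member was 105 kb. Pairs of members of a class with midpoints between 20 kb and 1 Mb from each other, the range in which the study examined contacts between binding sites, numbered 180 for SIN-3, 54 for JMJD-2 and 18 for SCC-1. X supplied 29 of the JMJD-2 pairs (53.7%), 40 of the SIN-3 pairs (22.2%) and 0 of the SCC-1 pairs, as follows in part from the number of members there. Contacts between these sites were not analysed here.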

How the data were processed

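Per the methods, the authors called peaks on ce10 with YAPC (for BLMP-1, MACS2) separately in the 2 replicates and kept those passing IDR with a P-value below 0.01. BWA and MACS2 are named in the submitters' processing notes, with no versions. The deposited lists hold peak positions in bp, with no score. Whether highly occupied intervals had been removed from them is not given. Each list was assigned to a protein from the sample labels.

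From the lists, merged intervals, distances between midpoints, widths and shares were computed. Shares were compared with two-sided Fisher's exact tests, adjusted by Benjamini-Hochberg over 36 tests, and differences between partners with likelihood-ratio tests in logistic models. Intervals are exact Clopper-Pearson 95% intervals, and a count of 0 is given the limit of 3 counts. The intervals named are the 3 with the longest and the 1 with the shortest shared stretch per class, those with TOP-2, the densest 1-Mb window (in steps of 100 kb) and the closest pair. The members, properties and naming rule were chosen with earlier results of these data known. Alternatives covered the overlap criterion, merging, BLMP-1, chromosomes, distances and widths. Procedures were tested on simulated data. Python 3.11.15, numpy 2.4.6, scipy 1.17.1 and matplotlib 3.10.9 were used. Genes and sequence at the intervals were not analysed here, since the gene table at hand is of another assembly than ce10.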

Additional observations from a re-analysis of the deposited data

Results flagged for a closer look

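The odds ratio of lying on X with against without ZFP-1 varied among the partners (n = 2004 intervals, adjusted p = 0.00286, likelihood-ratio test of the interaction in a logistic model). It was 5.94 for SIN-3, 1.96 for JMJD-2 and 0.900 for SCC-1. The X share was 24.8% with and 5.26% without ZFP-1 for SIN-3, 34.9% and 21.5% for JMJD-2, and 7.50% and 8.26% for SCC-1. In percentage points these differences were 19.5, 13.4 and -0.76, and the test did not compare them on that scale. What lies behind the variation was not tested.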

How the results depend on the processing

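Of 297 test results under 15 alternatives, 278 kept their call and direction, 6 lost the call, none gained one, and 13 turned direction, none of which had a call in either setting. The X share of SIN-3 intervals with ZFP-1 exceeded that without by 16.6 to 19.4 percentage points under 7 alternatives (largest adjusted p = 5.54e-07, Fisher's exact test). The difference between partners in the odds ratio for X passed under those, in the likelihood-ratio test, and with Zelen's exact test (adjusted p 0.00155 to 0.0369). The X share of JMJD-2 over SCC-1 members lost its call with at least 50% of the shorter peak shared (27.3 points), with midpoints at most 100 bp apart (28.5 points), with intervals less than 20 kb apart counted once (26.7 points) and without the densest window (22.9 points). The ZFP-1 neighbor share of SIN-3 lost its call with midpoints at most 100 bp apart (14.7 points) and without the densest window (14.5 points). These settings left 52 to 61 of the 63 JMJD-2 members and 30 to 39 of the 40 SCC-1 members. For the SIN-3 neighbor share, 106 and 116 of the 121 members were left. The cause of the lost calls was not tested. Leaving out the window, which lay on X and was picked for its members, lowers their X share by construction. The following differences, first as reported and then under the alternative, turned direction. For SCC-1 with against without ZFP-1, the X share went from -0.76 to 0.83 points (50% shared) and 1.74 points (midpoints at most 100 bp apart), and the arm share from 3.60 to -3.70 (midpoints at most 100 bp apart). The ZFP-1 neighbor share of JMJD-2 against SIN-3 members went from 1.08 to -3.07 (50% shared), -0.91 (midpoints at most 100 bp apart) and -2.06 (neighbors at most 20 kb apart), and that of JMJD-2 against SCC-1 members from 6.47 to -0.16 (neighbors at most 20 kb apart). On the autosomes only, the TOP-2 share of SIN-3 with against without ZFP-1 went from 1.76 to -0.65 and the wide share of JMJD-2 peaks from 4.74 to -2.88. With the upper quartile of widths, that of JMJD-2 peaks became -4.61, that of SIN-3 peaks went from 2.78 to -1.60 and that of ZFP-1 peaks in SCC-1 against SIN-3 members from 2.02 to -1.51. The share with midpoints within 100 bp in place of 50 bp, JMJD-2 against SIN-3 members, went from 5.38 to -5.06. The cause of these turns was not tested. Zelen's test, counting clusters once, leaving out the window and leaving out TOP-2 were chosen after seeing the data. No paired analysis was possible because each list combines both replicates, and no replicate could be left out. Depth is unknown, so what it limits could not be assessed.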

Other observations

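Intervals with more than 1 partner, which are not among the members, also held ZFP-1 at differing rates. Without BLMP-1, ZFP-1 was present at 55 of 163 intervals that carried all 3 partners (33.7%, exact interval 26.5% to 41.6%), with 12 of 25 on X (48.0%) and 43 of 138 on the autosomes (31.2%). It was present at 22 of 107 intervals of JMJD-2 with SIN-3 (20.6%), 11 of 93 of JMJD-2 with SCC-1 (11.8%) and 31 of 272 of SCC-1 with SIN-3 (11.4%). On X and the autosomes the shares were 20.0% (3 of 15) and 20.7% (19 of 92) for JMJD-2 with SIN-3 and 20.0% (3 of 15) and 10.9% (28 of 257) for SCC-1 with SIN-3, while JMJD-2 with SCC-1 had ZFP-1 at 3 of 6 on X and at 8 of 87 (9.20%) on the autosomes. The numbers on X were small, with exact intervals of 4.33% to 48.1% for 3 of 15 and 11.8% to 88.2% for 3 of 6. These values were not tested.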
